A study of Mus musculus with 6 samples.

Results

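The Polo-like kinases are serine/threonine kinases that share a kinase domain and a C-terminal polo-box region, with which they dock on partner proteins. The family was taken as the rows of the count table named *Plk1*, *Plk2*, *Plk3* or *Plk4*. Of these 4 genes, 3 were measured among the 40166 genes of the table, and all 3 passed the filter on low counts that left 15355 genes to test. *Plk4* was not analysed here. *Mki67*, which encodes the Ki-67 protein of dividing cells, was set beside the family. PLK1 has been proposed as a target of rigosertib (RGS), so the comparison asks how its gene and its relatives were expressed in tumors after RGS treatment.

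RNA was measured in 6 subcutaneous tumors of YUMM3.3, a mouse melanoma line with mutant BRAF, grown in C57BL/6 mice. Of these, 3 tumors came from the vehicle group, given water (0 mg/kg RGS), and 3 from the group given RGS at 300 mg/kg. Both were dosed by oral gavage on 5 days a week, and tumors were taken after 17 days of treatment. The study's methods give an age of 8 to 10 weeks for its tumor-bearing mice, and the labels give no age or sex for these ones. All tumors derive from 1 cell line, and each library is whole tumor, so fewer cells of a type and less RNA per cell cannot be told apart. Tumors are called by the numbers in their titles, 7 to 9 for vehicle and 10 to 12 for RGS. The labels do not say whether the 3 tumors of a group came from separate mice, and the p-values measure only the spread between these tumors.

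The libraries held 22793087 to 32555494 counts with vehicle and 13837932 to 21617368 with RGS. The shallowest vehicle library was thus deeper than the deepest RGS one, and counts thinned to an equal depth are among the alternatives. Mitochondrial transcripts took 2.13% to 3.20% of the counts with vehicle and 5.60% to 8.22% with RGS. Of 8 markers of the melanocyte lineage, *Mlana*, *Tyr* and *Dct* had no count in any tumor, and the summed level of the list was 4.94 to 7.67 counts per 1000000 counts (CPM) with vehicle and 4.53 to 12.7 CPM with RGS. *Mitf* was most of this sum in each tumor. Only *Mitf* and *Pmel* of the list were tested, and neither passed. Of 8 markers of T and NK cells, 5 were at 0 in all tumors, among them *Cd3e*. The sum of the list was at most 0.602 CPM with vehicle and 0.612 to 1.42 CPM with RGS. Only *Trac* of this list was tested, and it rose from 0 to a mean of 1.08 CPM. Of 8 macrophage markers, *Adgre1* was at 0 in all tumors, and the list summed to 65.1 to 71.0 CPM with vehicle and 83.0 to 106 CPM with RGS. Only *Cd68* and *Cd14* of this list were tested, and they made up nearly all of the sum, so the other macrophage markers were near 0. *Cd68*, the larger part of this sum, did not pass, while *Cd14* rose from 6.13 to 19.4 CPM. The 6 endothelial markers summed to 2.49 to 4.10 and 6.32 to 13.8 CPM, with *Emcn* at 0 in all tumors. Most of the rise was *Cdh5*, with means of 0.555 CPM with vehicle and 6.20 CPM with RGS. *Tek* was at 0.217 and 0.0519 CPM, and *Tek*, *Pecam1* and *Vwf* did not pass. The 6 fibroblast markers, with *Lum* at 0, summed to 375 to 572 and 276 to 305 CPM, and the list went both ways: *Col1a2*, *Pdgfra* and *Pdgfrb* fell, *Dcn* rose from 1.14 to 10.7 CPM, and *Col1a1* did not pass. The 6 keratinocyte markers, with *Krt1* at 0, summed to 0.399 to 1.72 and 6.77 to 22.8 CPM, most of the latter from *Ivl*, which was at 0 with vehicle and at 5.87 to 19.6 CPM with RGS. Of 4 skeletal muscle markers, *Ckm* and *Myh4* were at 0, and the sum was at most 0.890 and 1.16 CPM. The part of these shifts and of mitochondrial transcripts in the results below was not tested.

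PLK1 drives entry into mitosis, centrosome maturation, chromosome segregation and cytokinesis, and its transcript is known to peak late in the cell cycle. PLK2 and PLK3 are better known from early responses to growth factors and from stress and DNA damage, and *Plk2* is a known p53 target gene. *Plk1* (ENSMUSG00000030867.7) lies on chromosome 7 of mm10 (GRCm38) from 122159439 to 122169873, plus strand, and its longest coding transcript has 10 exons for 603 residues. *Plk2* (ENSMUSG00000021701.8) lies on chromosome 13 from 110395046 to 110400844, plus strand, with 14 exons for 682 residues. *Plk3* (ENSMUSG00000028680.14) lies on chromosome 4 from 117128655 to 117133963, minus strand, with 15 exons for 648 residues.

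The 3 genes carry different short motifs near their starts. The windows are shown because *Plk1* and *Mki67* hold motifs in common and *Plk2* and *Plk3* share another. They are RefSeq sequence (GRCm38.p6) of 28 bases, read on the strand of the gene, with the motif in capitals. The motifs searched, on both strands, were the cell cycle homology region (CHR) TTTGAA, the CCAAT box, the cAMP response element (CRE) TGACGTCA, its part TGACG, the TATA box TATAAA and an E2F site, written TTTCGCGC or else TTTGGCGC.
Plk1, CHR, chr7:122159454-122159481: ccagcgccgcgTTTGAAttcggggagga
Plk1, CCAAT, chr7:122159410-122159437: aatccccgcggCCAATcagcaacgcgca
Mki67, CHR, chr7:135716461-135716488: cgccgttttggTTTGAAtcgggcgggct
Plk2, CRE, chr13:110394972-110394999: gcgctcgccgTGACGTCAcgaggccccg
Plk3, TGACG, chr4:117134079-117134106: gatctttcaggTGACGtaaggcggagca

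Distances are counted from RefSeq starts, which for *Plk1* and *Plk2* differ by a few bases from the gene spans given above. In *Plk1* the CCAAT box began 14 bases before that start and the CHR began at base 31 after it. *Mki67* held 2 CHR matches and 3 matches of the CCAAT box, all upstream. The full CRE of *Plk2* began 62 bases before the start, and its part matched there on both strands, with 1 more match at base 22 after the start. *Plk3* held that part without the full CRE. Its match 132 bases before the start is shown, and its matches are not counted here. Of the 32851 RefSeq promoters of the same length, from 250 bases before to 50 after a start, 17.9% held the CHR, 37.4% the CCAAT box, 1.79% the full CRE and 20.8% its part. The TATA box was in 13.6% and the E2F site in 0.813% of them, and no member had either in its window. Of 22 promoters found for 18 genes of PLK1's docking partners and substrates, 14 held the CHR and 16 the CCAAT box. Of 25 promoters of 24 cell division genes, 10 held the CHR and 19 the CCAAT box. Of 20 promoters of 16 early response genes, 3 held the CHR, 11 the CCAAT box, 11 the CRE part and 1 the full CRE, so the CCAAT box was common in all 3 lists. These matches describe the letters and do not show that a factor binds there.

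The members moved in different directions. Of the 3 measured, *Plk2* fell and *Plk3* rose past an adjusted p under 0.05, while *Plk1* did not pass, beside 32.8% of all 15355 genes that passed in either direction (16.5% lower and 16.3% higher). The groups did not overlap for *Plk2* and *Plk3*, as for 45.8% of all genes, so having such a difference does not set the family apart in these tumors. *Mki67* fell. Values are CPM scaled by the TMM method, and differences are from the quasi-likelihood test of edgeR, adjusted after Benjamini and Hochberg.

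*Plk1*, the mitotic kinase, was measured at 23.8, 18.9 and 21.2 CPM in vehicle tumors 7, 8 and 9 and at 10.4, 23.2 and 17.1 CPM in RGS tumors 10, 11 and 12. RGS tumor 11 lay among the vehicle tumors, while tumors 10 and 12 lay below all of them. The group means were 21.3 ± 2.45 CPM for vehicle and 16.9 ± 6.39 CPM for RGS (SD, n = 3 each). This is -0.34 on the log2 scale (standard error 0.27, 95% interval -0.91 to 0.23), with an adjusted p of 0.370 in edgeR. In linear terms the interval runs from 0.531 times the vehicle level to above that level, so its direction is not settled by these tumors. Without RGS tumor 11 the log2 fold change was -0.65 (adjusted p = 0.0994, edgeR), and without RGS tumor 10 it was -0.09 (adjusted p = 0.825, edgeR). For cultured human SkMel5 melanoma cells the study reports a rapid drop of the mitotic markers PLK1 and FOXM1 with RGS. Its discussion instead speaks of an increase of both markers in melanoma cells. Those are cells in culture and not tumors after 17 days of treatment.

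*Plk2*, a kinase of the early growth and stress response, was at 615, 625 and 638 CPM in the vehicle tumors and at 396, 410 and 361 CPM in the RGS tumors. All 3 RGS tumors lay below all vehicle tumors, and tumors of a group were close to each other. It fell from 626 ± 11.8 to 389 ± 25.2 CPM (SD, n = 3 each), to 0.621 times the vehicle level. Its log2 fold change was -0.69 (standard error 0.14, 95% interval -0.99 to -0.38, adjusted p = 0.00118 from edgeR). Over all 16 alternative fits the log2 fold change lay between -0.83 and -0.66, and the adjusted p was at most 0.00901.

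*Plk3*, a kinase linked to stress and DNA damage, was at 225, 193 and 176 CPM in the vehicle tumors and at 424, 412 and 390 CPM in the RGS tumors. The RGS tumors all lay above the vehicle tumors. It rose from 198 ± 24.9 to 409 ± 17.3 CPM (SD, n = 3 each), 2.07 times the vehicle level, with a log2 fold change of 1.05 (standard error 0.15, 95% interval 0.73 to 1.37) and an adjusted p of 3.48e-05 in edgeR. The alternatives gave 0.90 to 1.15, with an adjusted p of at most 6.59e-04.

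*Mki67* was at 164, 110 and 124 CPM in the vehicle tumors and at 54.6, 37.6 and 53.3 CPM in the RGS tumors, without overlap. It fell from 133 ± 28.1 to 48.5 ± 9.45 CPM (SD, n = 3 each). The log2 fold change was -1.45 (standard error 0.19) at an adjusted p of 1.36e-05 in edgeR. RGS tumor 11, with the highest *Plk1* of its group, had the lowest *Mki67* of all 6. In stained sections of YUMM3.3 tumors the study reports more Ki67-positive cells with RGS, a measure of protein and not of RNA. By flow cytometry it reports less proliferation with RGS among CD45-negative cells, which include the tumor cells.

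**Figure D1:**
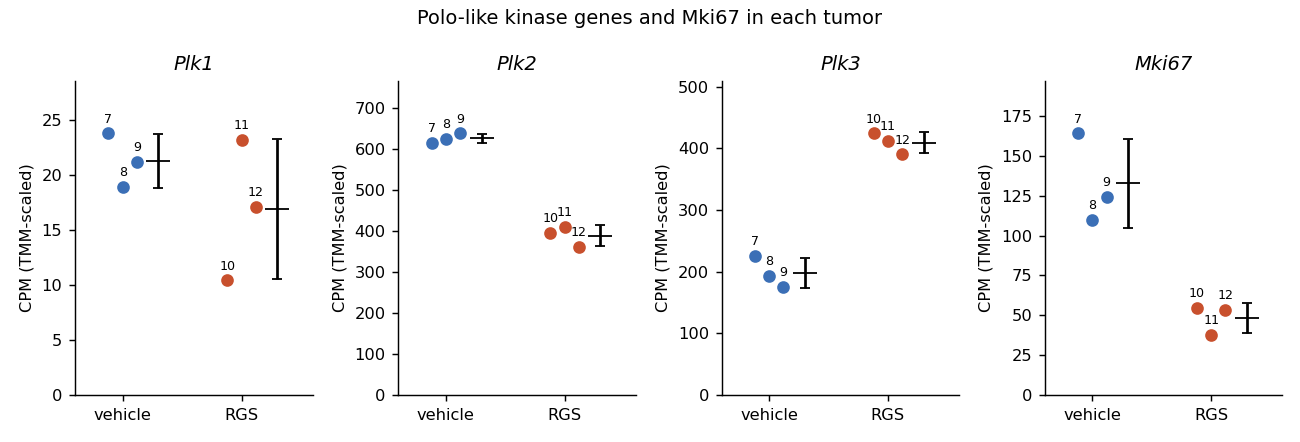
TMM-scaled CPM (y axis, from 0) of *Plk1*, *Plk2*, *Plk3* and *Mki67* in 3 vehicle and 3 RGS tumors (points, numbered as the tumors), with the group mean and SD beside them. *Plk1* of RGS tumor 11 (23.2 CPM) sits among the vehicle tumors, while *Plk2* and *Mki67* are lower and *Plk3* higher in all 3 RGS tumors.

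Other genes could add reads to these counts or take reads from them, since the strand setting of the counting is not given in the sources used here. How reads in a shared stretch were assigned was not tested, and the counts of the overlapping genes do not show it. *Gm44985* overlaps *Plk1* by 1016 bases on the opposite strand and had 0 to 10 counts per tumor, beside 220 to 833 for *Plk1*. *Tctex1d4* overlaps *Plk3* by 84 bases on the opposite strand, with 0 to 28 counts beside 4089 to 8966. No annotated gene overlaps *Plk2*. The processed pseudogene *Plk-ps1* on chromosome 5 had 0 to 20 counts, and *Plk5*, the fifth gene of the family, had no count in any tumor.

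The order of the genes by level changed with RGS. Levels between genes were compared as TPM, which scales counts by gene length and library, computed with the gene length in the table. With vehicle *Plk2* stood at 458 ± 41.7, *Plk3* at 260 ± 61.1, *Mki67* at 43.9 ± 13.7 and *Plk1* at 32.0 ± 6.57 TPM (SD, n = 3 each). With RGS *Plk3* stood at 468 ± 55.2, *Plk2* at 251 ± 32.0, *Plk1* at 22.0 ± 7.98 and *Mki67* at 13.9 ± 3.03 TPM (SD, n = 3 each). By its level *Plk2* ranked above 97.9% and *Plk3* above 96.1% of all tested genes with vehicle, and above 96.4% and 98.3% with RGS. *Plk1* ranked above 70.1% and 65.2%.

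The TPM of *Plk2* was 1.54, 1.82 and 2.05 times that of *Plk3* in vehicle tumors 7, 8 and 9 and 0.526, 0.560 and 0.522 times in RGS tumors 10, 11 and 12. The order turned in all 3 tumors of the group. The table gives *Plk2* a length of 4491 bases, which includes exons outside its main transcript of 2800 bases. With the lengths of the longest coding transcripts the ratios were 2.32 to 3.09 with vehicle and 0.786 to 0.844 with RGS, so the turn of the order was also seen there. *Plk1* and *Mki67*, the neighbours at the low end, overlapped in their TPM ranges in both groups. Within a tumor *Plk1* was at 0.662 to 0.786 times *Mki67* with vehicle, and at 0.873, 2.82 and 1.47 times with RGS.

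**Figure D2:**
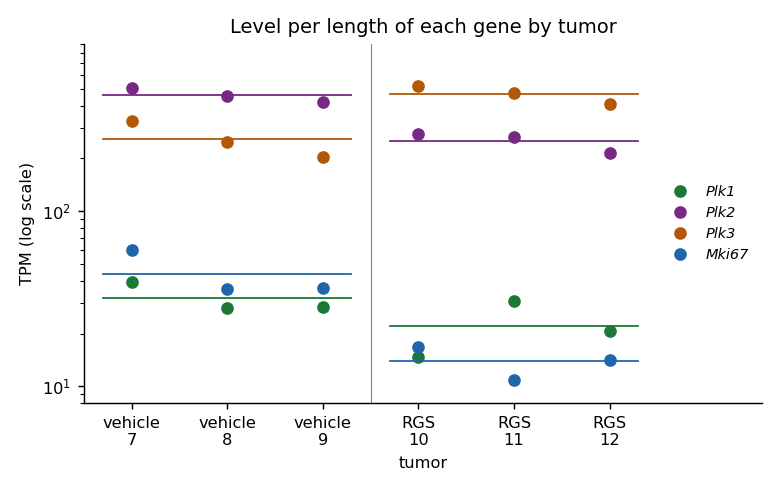
TPM (y axis, log scale) of *Plk1*, *Plk2*, *Plk3* and *Mki67* in each tumor (x axis), with the group mean as a line. *Plk2* lies above *Plk3* in the 3 vehicle tumors and below it in the 3 RGS tumors.

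Relative to *Mki67*, all 3 kinase genes were higher in the RGS tumors, without overlap of the groups. *Mki67* itself had a log2 fold change of -1.45, beside a median of -0.05 for all tested genes. A gene that did not change is therefore also higher in this ratio, and the share of all genes that are is not given here. The log2 ratio of *Plk1* to *Mki67* was -2.79, -2.54 and -2.55 in vehicle tumors and -2.39, -0.70 and -1.64 in RGS tumors. RGS tumor 10 was near the vehicle tumors, and RGS tumor 11 was far from them. The difference was 1.05 on the log2 scale, from 0.15 to 2.09 over the 9 pairs of an RGS and a vehicle tumor (two-sided exact permutation test, p = 0.1, the smallest that 3 tumors against 3 allow, and adjusted p = 0.1 over the 3 members). It was 0.61 without RGS tumor 11 and 1.46 without RGS tumor 10. Set against the mean of 26 cell division genes in place of *Mki67*, the *Plk1* difference was 0.95, from 0.29 to 1.54 over the pairs.

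The difference relative to *Mki67* was 0.77 for *Plk2*, from 0.25 to 1.54 over the 9 pairs of tumors, so this gene fell by less than *Mki67*. It was 2.51 for *Plk3*, from 2.06 to 3.00. Both have p = 0.1 in the same exact permutation test. A design of this size cannot pass 0.05, so these 3 differences are given as values.

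**Figure D3:**
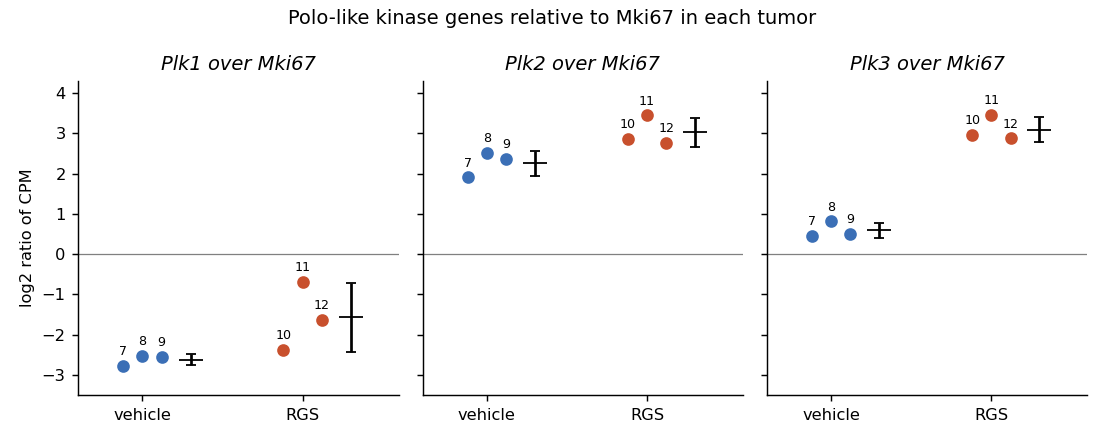
Log2 ratio of the CPM of each kinase gene to that of *Mki67* (y axis) in 3 vehicle and 3 RGS tumors (numbered points, with group mean and SD). The ratio is higher in every RGS tumor for each gene, and for *Plk1* RGS tumors 10, 11 and 12 are spread from -2.39 to -0.70. *Mki67* itself fell, so a gene that did not change is also higher in this ratio.

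Between members, 3 pairs were compared in the same way. *Plk2* relative to *Plk3* had a log2 ratio of 1.45 to 1.86 with vehicle and -0.11 to -0.01 with RGS in CPM. The difference was -1.74, from -1.97 to -1.46 over the tumor pairs (exact permutation p = 0.1, adjusted p = 0.15 over 3 pairs). *Plk1* relative to *Plk3* differed by -1.46, from -2.29 to -0.80 (exact permutation p = 0.1, adjusted p = 0.15), without overlap of the groups. *Plk1* relative to *Plk2* differed by 0.29, from -0.55 to 0.91 (exact permutation p = 0.5), and the groups overlapped.

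Genes of PLK1 activation and entry into mitosis were mostly lower with RGS. The list holds drivers of entry and also *Wee1* and *Pkmyt1*, kinases that inhibit CDK1. Of 16 listed, all tested, 10 fell and none rose (edgeR, adjusted p under 0.05), beside 16.5% and 16.3% of all genes. Their median log2 fold change was -1.16, beside -0.05 for all tested genes. Of the pair that activates PLK1, the kinase gene *Aurka* fell from 29.3 ± 2.21 to 12.7 ± 2.41 CPM (SD, n = 3 each), a log2 fold change of -1.20. *Bora*, its cofactor, was at 18.4 ± 1.80 and 15.0 ± 2.57 CPM (SD, n = 3 each) and did not pass (log2 fold change -0.30, adjusted p = 0.375, edgeR), and its groups overlapped. *Foxm1*, a transcription factor for genes of late cell cycle, was at 70.0, 46.1 and 44.0 CPM in the vehicle tumors and at 19.6, 16.1 and 16.0 CPM in the RGS tumors, and fell by 1.63 on the log2 scale. *Ccnb1*, the cyclin of mitotic entry, and *Lin54*, a subunit of the complex that binds the CHR, fell by 1.96 and 2.03. *Wee1*, named here as an inhibitor within the list, is among the 10 that fell, with a log2 fold change of -1.17. Without an adjusted p under 0.05 were *Cdc25a*, *Cdc25b*, *Pkmyt1*, *Lin37* and *Lin52* as well as *Bora*. The count at an adjusted p under 0.05 was 9 to 11 with each tumor left out.

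Docking partners and substrates of PLK1 were lower in larger number. Of 22, 17 fell and 1 rose, beside 16.5% and 16.3% of all genes, with a median log2 fold change of -1.48. In 18 the RGS tumors all lay below the vehicle tumors, as in 24.0% of all genes. *Bub1*, a kinetochore kinase that binds the polo box, was at 50.7, 45.6 and 54.0 CPM with vehicle and at 6.53, 7.91 and 6.97 CPM with RGS, and fell by 2.81 on the log2 scale (standard error 0.22) at an adjusted p of 1.82e-08 in edgeR. *Cenpu*, a centromere protein that also docks PLK1, fell from 6.95 ± 1.69 to 0.836 ± 0.458 CPM (SD, n = 3 each). *Ect2* and *Racgap1*, which act with PLK1 in cytokinesis, had log2 fold changes of -2.20 and -1.83. *Nudc*, a dynein-associated protein, rose from 115 ± 26.7 to 185 ± 36.6 CPM (SD, n = 3 each), or 0.69 on the log2 scale (adjusted p = 0.00901, edgeR). *Nudc* did not pass without RGS tumor 12.

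Cell division genes in general fell as well. Of 28 listed, 26 were tested, 22 fell and none rose, beside 16.5% and 16.3% of all genes. The median log2 fold change was -1.35. *Kif11*, a motor of the spindle, was listed at 0 in all tumors. *Anln*, *Ccne2* and *Hmmr* fell by 2.62, 3.03 and 2.26. The summed level of the list, 1812 to 1945 CPM with vehicle, was 814 to 870 CPM with RGS. *E2f1*, *Ccne1*, *Pcna* and *Cenpf* did not pass.

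*Plk1* stood near the top of these genes by its log2 fold change. Of the 64 tested genes in these 3 lists, 55 had a lower log2 fold change than *Plk1* and 9 a higher one. In 51 of the 64, and in 24.0% of all genes, the RGS tumors all lay below the vehicle tumors, which was not so for *Plk1*. The summed level of the 64 genes was 1661, 1701 and 1807 CPM in RGS tumors 10, 11 and 12, so tumor 11 did not stand apart by this sum. In 23 of the 64 genes RGS tumor 11 was the highest of the RGS tumors, as in *Plk1*, and in 8 it was above the lowest vehicle tumor. Each of the 3 RGS tumors can be the highest in a gene, and the shares over all genes are not given here, so these counts do not mark a group of genes. The profile closest to *Plk1* among them was that of *Pkmyt1*, an inhibitory kinase of CDK1, with 8.23, 16.9 and 8.93 CPM in the RGS tumors and 13.8 to 15.7 CPM with vehicle. *Ccne1*, a cyclin of S-phase entry, came next, with 4.92, 14.0 and 9.85 CPM in the RGS tumors. *Pkmyt1* and *Ccne1* were named here after their values were seen.

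**Figure D4:**
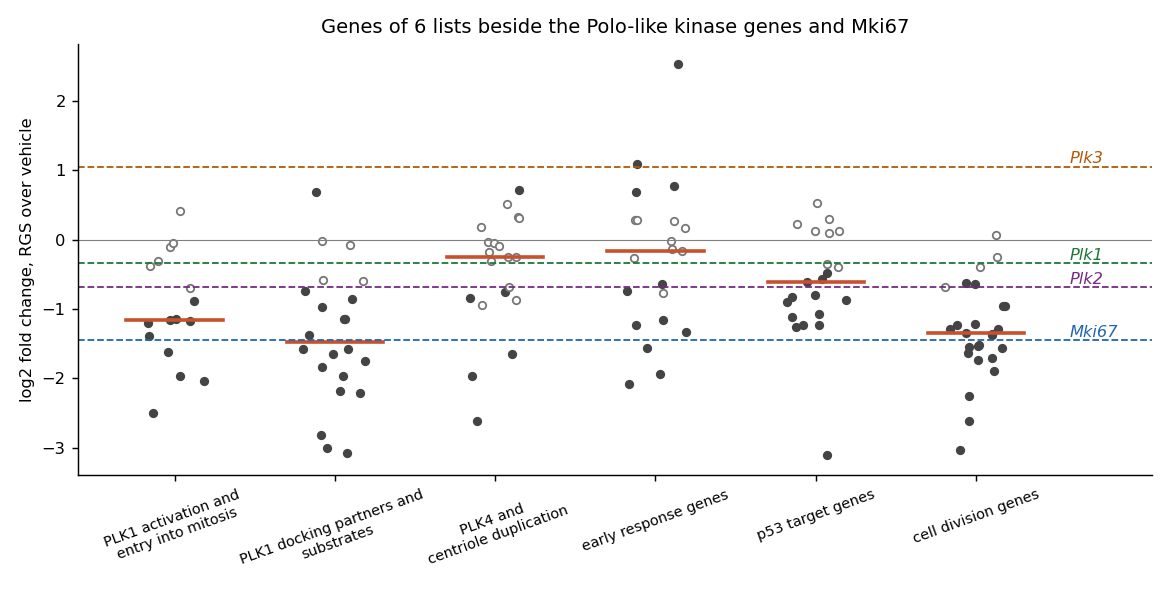
Log2 fold change of RGS over vehicle (y axis) for the tested genes of 6 lists (filled points, adjusted p under 0.05 in edgeR, open points, not passed), with each list's median as a bar and the kinase genes and *Mki67* as dashed lines. The medians of the first 2 lists and of the cell division genes (-1.16, -1.48 and -1.35) lie near *Mki67* and below *Plk1* at -0.34.

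Genes of centriole duplication, the process led by PLK4, were mixed. Of 20, 5 fell and 1 rose, with a median log2 fold change of -0.25, beside 16.5% of all genes that fell and 16.3% that rose. *Sass6*, which builds the centriole cartwheel, fell from 6.14 ± 2.48 to 0.999 ± 0.0987 CPM (SD, n = 3 each), or by 2.61 on the log2 scale. *Cep192*, a scaffold that recruits the kinase, fell by 0.76, while *Cep57* and *Cep85* fell by 1.96 and 1.65. *Cep120* rose by 0.72. *Stil* and *Cep152*, direct partners of the kinase, did not pass (log2 fold changes -0.68 and -0.88, adjusted p = 0.171 and adjusted p = 0.0650, edgeR). In both, RGS tumor 11 was the highest of its group, at 11.3 and 10.5 CPM. *Btrc*, a subunit of the ubiquitin ligase that limits the kinase, was at 24.4 ± 6.08 and 30.3 ± 6.44 CPM (SD, n = 3 each; adjusted p = 0.341, edgeR). Without RGS tumor 11, 8 of the list fell, and without RGS tumor 12, 3 did.

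Early response genes, the class to which *Plk2* and *Plk3* belong, also moved both ways. Of 22 listed, 21 were tested, 8 fell and 4 rose, beside 16.5% and 16.3% of all genes, and the median log2 fold change was -0.16. The 4 that rose are thus a share near that of all genes. *Egr1*, a zinc finger factor induced by growth signals, was at 272, 257 and 258 CPM with vehicle and at 75.1, 58.3 and 71.7 CPM with RGS, and fell by 1.94 on the log2 scale. *Gadd45a* and *Gadd45b*, stress-induced regulators of growth arrest, fell by 1.56 and 2.07. *Ier3* was at 238, 219 and 215 CPM with vehicle and at 1113, 1391 and 1387 CPM with RGS, a log2 fold change of 2.53. *Ctgf*, a matricellular protein, rose by 1.08, close to *Plk3* at 1.05, and *Dusp1*, a MAP kinase phosphatase, by 0.78. *Fos* did not pass (8.04 ± 1.02 and 4.70 ± 2.28 CPM, SD, n = 3 each, adjusted p = 0.161, edgeR).

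Of 22 p53 target genes, 21 were tested, 13 fell and none rose, beside 16.5% and 16.3% of all genes. Their median log2 fold change was -0.61, beside -0.05 for all tested genes and -0.69 for *Plk2*. *Ccng1*, *Mdm2* and *Polk* fell by 1.23, 1.12 and 1.23. *Trp53* itself rose from 111 ± 13.5 to 159 ± 6.86 CPM (SD, n = 3 each), by 0.51 on the log2 scale (adjusted p = 0.0156, edgeR). *Cdkn1a*, the CDK inhibitor induced by p53, was at 268 ± 13.3 and 291 ± 16.9 CPM (SD, n = 3 each) and did not pass (adjusted p = 0.577, edgeR). The study displays p53-associated genes that it selected on these tumors and discusses *Mdm2* among them, so the count is not independent evidence of its direction.

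The genes most like each member across the 6 tumors were found among 12239 tested genes with a mean of at least 1 CPM, by the root mean square difference of log2 CPM after each gene was centred on its own mean. The 5 genes nearest to *Plk1* were *Il6ra*, an interleukin 6 receptor subunit, the noncoding RNA *Bvht*, *Fam131c*, *Vars2*, a mitochondrial tRNA synthetase, and *Ctsf*, a cathepsin, at differences of 0.077 to 0.13. None of these 5 passed the test, and all were lowest in RGS tumor 10. Both follow from their choice by likeness to *Plk1* over these same tumors. *Mki67* came at rank 8609, at a difference of 0.72, beside a median of 0.57 for all 12239 genes.

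Nearest to *Plk2* were *Krr1*, a ribosome biogenesis factor, *Emp1*, *Fbxo3* and *Rab28*, at 0.036 to 0.050, with log2 fold changes from -0.76 to -0.68. *Mki67* ranked 5291 for *Plk2*. Nearest to *Plk3* were *Il4ra*, an interleukin 4 receptor subunit, *Gosr2*, a Golgi SNARE, *Bcl6*, a transcriptional repressor, *Flywch1* and *Zmynd8*, at 0.035 to 0.051, with log2 fold changes from 0.97 to 1.05. The fold changes of the genes nearest to *Plk2* and to *Plk3* likewise follow from their choice by profile. *Mki67* ranked 10742 for *Plk3*, at a difference of 1.27. No early response gene or division gene of the lists was among the genes named here as nearest.

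**Figure D5:**
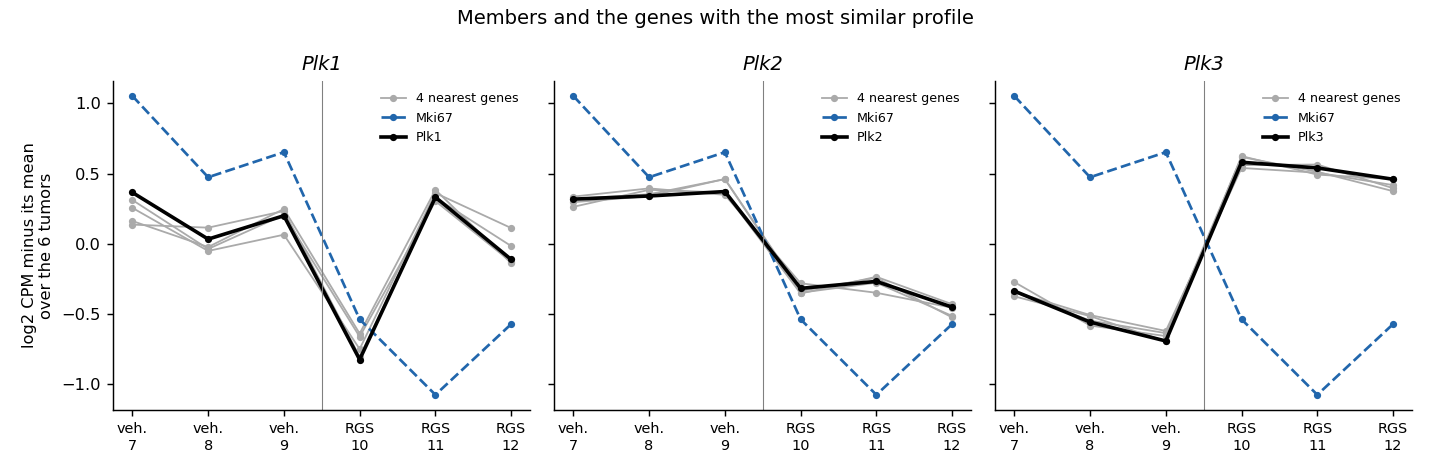
Log2 CPM minus its mean over the 6 tumors (y axis) by tumor (x axis) for *Plk1*, *Plk2* and *Plk3* (black), their 4 nearest genes (grey) and *Mki67* (dashed). *Plk1* drops in RGS tumor 10 and not in tumor 11, where *Mki67* is lowest.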

How the data were processed

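For 6 tumors the deposited table holds raw counts by gene with no normalization. Per the labels, the processing notes name STAR 2.7.1a, featureCounts 1.6.4, cutadapt 1.18 and FastQC 0.11.7 with mm10. Reads were paired, of 150 bases. All 38971 gene identifiers shared with GENCODE M21 (GRCm38) had the same span there. Counts were analysed in R 4.3.3 with edgeR 4.0.16: genes with a group median of 5 or more counts in either group, TMM factors, the quasi-likelihood F test and Benjamini-Hochberg adjustment over 15355 genes. Standard errors were taken as the absolute log2 fold change divided by the root of F. Ratios of genes used log2 CPM with a prior count of 0.5 and an exact permutation test over tumors (scipy 1.17.1). The gene-wise fits, but not the ratios or the permutation test, were also run on simulated counts. Far fewer genes were set to change there than were called in these tumors, and the outcome is not reported here. Members and lists were chosen with earlier results of these data known. The genes named are the members, Mki67, Plk5, 14 genes picked for their known link to the kinases, p53 or the early response, up to 3 genes by adjusted p in each direction of a list, up to 5 nearest profiles and overlapping genes, and others for which this is said, that are named as not passing, or that are markers. Alternatives were DESeq2 1.42.0 (the study's tool), limma 3.58.1 voom, other scalings and filters, thinning, no mitochondrial genes, each tumor left out, a fold limit and other priors. One nearest profile and 1 promoter window are not reported here. Plk4 was not analysed here, and neither were the ratios that need it.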

Additional observations from a re-analysis of the deposited data

How the results depend on the processing

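*Plk2*, *Plk3* and *Mki67* passed and *Plk1* did not in all 16 alternative fits. *Plk1* ranged from -0.48 to -0.26 on the log2 scale under other tools, scalings and filters and, when tumors were left out singly, from -0.65 to -0.09. Scaling by library size only shifted the median of all genes to -0.19 from -0.05 and gave 3152 lower and 1870 higher genes, beside 2533 and 2503. A further limit, a log2 change of 1 or more in size, left 1450 lower and 1168 higher genes, 6 lower p53 targets, 2 higher early response genes, 3 lower and 0 higher centriole genes and 0 higher docking partners. Higher centriole genes numbered 2 with DESeq2 and 3 with voom, and voom gave 1 higher gene each for entry into mitosis and p53. With each tumor left out, centriole genes ranged from 3 to 8 lower and from 1 to 2 higher (2 without vehicle tumor 7), docking partners from 0 to 1 higher and p53 targets from 0 to 1 higher (1 without vehicle tumor 7). The cause of these shifts was not tested. The ratios to *Mki67* and between members kept their sign under every alternative run. Depth limits the precision of genes with few counts: a floor of 3 counts was 0.0856 to 0.226 CPM, and it covers counting error only. No paired analysis was possible because the groups share no replicate number.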
